A study of Mus musculus with 29 samples.

Results

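The Rab genes encode the largest family of small GTPases of vesicle traffic, and their chromatin was followed here through mouse myeloid and dendritic cell development. Every protein-coding mouse gene whose symbol is Rab, a number and at most 2 further characters was taken, which gave 61 of 21887 protein-coding genes. Of these, 59 encode Rab GTPases. The other 2 match by name only: Rab3ip encodes an exchange factor that activates Rab8, and Rab5if a factor that interacts with Rab5. Regions of H3K27ac (acetylation of histone H3 at lysine 27, a mark of active promoters and enhancers) and peaks of the transcription factors IRF8 and CEBPA were collected within 20 kb of each gene span on mm10.

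A Rab protein is anchored in a membrane by a lipid tail and switches between a GTP-bound active and a GDP-bound inactive form. Exchange factors (GEFs) switch it on, GTPase-activating proteins (GAPs) switch it off, the carrier GDI returns it to the cytosol, and effectors such as tethers and motor adaptors read the active form. Each Rab marks a set of compartments. In dendritic cells this traffic decides where captured antigen is degraded or loaded onto MHC molecules, and Rab43, Rab27a, Rab11a, Rab22a and Rab39 have been tied to antigen cross-presentation by dendritic cells.

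The H3K27ac data held 14 libraries of C57BL/6 mice in 7 groups of 2. Wild-type (WT) groups were LSK cells (Lin- Sca1+ CD117+) and lymphoid-primed multipotent progenitors (LMPP, CD135+, CD150- and IL-7R- among Lin- CD117+ Sca-1+ cells) from bone marrow, and classical type 1 dendritic cells (cDC1, F4/80-, XCR1+ and CD172a- with high CD11c and MHC class II) from spleen. Mice deficient in the Irf8 +56 kb enhancer (d+56kb in the labels, d56kb here) gave bone marrow LMPP, granulocyte-monocyte progenitors (GMP, CD16/32+ and CD115-) and monocyte-dendritic cell progenitors (MDP, CD115+), both Lin- Sca-1- CD117+ IL-7R-, and IRF8-deficient (IRF8KO) mice gave LMPP. All GMP and MDP libraries therefore carry the enhancer deletion; their WT counterparts were not analysed here. IRF8 and CEBPA were mapped in WT cDC1 of spleen (enriched as CD8a+) and WT monocytes (Mo, CD115+) of bone marrow, with 2 libraries per factor and cell type. Cells for H3K27ac were enriched on magnetic columns and then sorted by flow cytometry, and those for the factors were enriched on columns only. The series speaks of biological duplicates without saying whether they came from separate animals, and the animals' age is not given, so p-values measure the spread between these libraries.

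Depth was uneven between groups. Total tags ran from 1.26 to 10.9 M per H3K27ac library, with the lowest in the IRF8KO LMPP libraries, and called regions covered 17.7 to 18.4 Mb in IRF8KO LMPP, 22.2 to 25 Mb in WT LMPP and 33.9 to 48.7 Mb in WT cDC1. Marker genes followed the labels, with the GMP list also high in MDP. The 6 cDC1 markers held a summed acetylated length of 139 to 158 scaled kb in cDC1 against at most 23.8 elsewhere. The 6 granulocyte-monocyte progenitor markers held 75.5 to 78.1 in GMP, 52.34 to 58.05 in MDP and 23.7 to 31.6 in d56kb LMPP. In cDC1 this GMP list held 0.0584 to 0.513 scaled kb, with Prtn3, Mpo, Ctsg and Gfi1 at 0. The 6 monocyte and MDP markers held 41.01 to 42.15 scaled kb in MDP, 29.07 to 32.34 in cDC1, 21.1 to 21.31 in GMP and 15.07 to 15.36 in d56kb LMPP. Most of the cDC1 sum was Irf8, with a mean of 26.77 scaled kb. Klf4 held 2.24 there, Csf1r 1.16, Cx3cr1 0.357, F13a1 0.178 and Ly6c2 0. The 6 stem and progenitor markers held 4.27 to 4.63 scaled kb in cDC1, with Hlf and Mecom at 0, and 94.5 to 111 in WT LMPP. The 5 B cell markers held 7.50 to 9.55 scaled kb in cDC1 and 9.83 to 12.9 in WT LMPP, and the neutrophil markers 16.0 to 16.5 in GMP and 5.78 to 8.25 in d56kb LMPP. The part of such other cells in the results on Rab genes was not tested, and in these bulk samples fewer cells with a mark and less mark per cell cannot be told apart.

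Promoter sequences of 50 of the 61 genes were matched in RefSeq (GRCm38.p6, the mm10 assembly), as 62 windows from 250 bases before to 50 bases after a start. The following 5 are printed because the acetylation or factor data bear on them. The windows of Rab39 and Rab19 were called acetylated in both cDC1 libraries and in few progenitor libraries. One Rab43 window overlapped a monocyte CEBPA peak, the Rab5a window overlapped a cDC1 IRF8 peak, and Rab32 holds a match to the PU.1 motif. Each runs 5′ to 3′ along the gene, with motif matches in capitals.
Rab39: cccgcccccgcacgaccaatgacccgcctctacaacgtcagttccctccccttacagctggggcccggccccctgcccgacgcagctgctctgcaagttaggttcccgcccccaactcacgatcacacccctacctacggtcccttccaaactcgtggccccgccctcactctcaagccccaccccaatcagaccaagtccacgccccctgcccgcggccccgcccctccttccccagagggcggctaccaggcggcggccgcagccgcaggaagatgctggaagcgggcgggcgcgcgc
Rab19: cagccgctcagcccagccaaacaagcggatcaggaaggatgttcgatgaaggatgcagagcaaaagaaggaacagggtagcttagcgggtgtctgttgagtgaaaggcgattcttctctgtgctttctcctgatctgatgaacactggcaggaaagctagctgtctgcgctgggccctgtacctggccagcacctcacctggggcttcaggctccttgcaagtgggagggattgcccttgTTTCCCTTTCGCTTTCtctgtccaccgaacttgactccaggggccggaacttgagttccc
Rab43: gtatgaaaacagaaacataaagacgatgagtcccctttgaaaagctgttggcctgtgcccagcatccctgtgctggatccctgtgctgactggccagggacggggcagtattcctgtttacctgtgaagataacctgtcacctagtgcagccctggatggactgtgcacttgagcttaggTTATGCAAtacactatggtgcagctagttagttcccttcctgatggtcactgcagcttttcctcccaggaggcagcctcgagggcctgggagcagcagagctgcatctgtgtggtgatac
Rab5a: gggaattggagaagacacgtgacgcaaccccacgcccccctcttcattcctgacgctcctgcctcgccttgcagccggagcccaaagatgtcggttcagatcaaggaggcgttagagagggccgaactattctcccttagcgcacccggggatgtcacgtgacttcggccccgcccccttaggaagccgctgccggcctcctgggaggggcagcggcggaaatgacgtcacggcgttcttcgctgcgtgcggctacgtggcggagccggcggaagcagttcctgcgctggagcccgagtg
Rab32: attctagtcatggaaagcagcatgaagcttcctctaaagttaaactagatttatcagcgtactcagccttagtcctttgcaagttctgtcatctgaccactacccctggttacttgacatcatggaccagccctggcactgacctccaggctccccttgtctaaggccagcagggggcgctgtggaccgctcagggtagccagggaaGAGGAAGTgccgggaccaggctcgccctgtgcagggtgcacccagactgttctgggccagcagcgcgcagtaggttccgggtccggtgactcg

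These windows lie at chr9:53706183-53706482 (minus strand, Rab39), chr6:39381103-39381402 (plus, Rab19), chr6:87809708-87810007 (minus, Rab43), chr17:53478984-53479283 (plus, Rab5a) and chr10:10558158-10558457 (minus, Rab32). Both strands of all windows were searched for the composite motif EICE (GGAA and GAAA half-sites 2 bases apart), ISRE (GAAA half-sites 2 bases apart), AICE (an AP-1 site TGANTCA with GAAA 4 bases after it or directly before it), a CEBP motif (TTGCNNAA) and a PU.1 motif (GAGGAAGT). The capitals of Rab19 are 2 overlapping ISRE matches that begin 10 and 4 bases before the start, those of Rab43 a CEBP match beginning 70 bases before it, and those of Rab32 a PU.1 match beginning 43 bases before it. The CEBP match of Rab43 lay inside the monocyte CEBPA peak. Neither ISRE match of Rab19 lay in a reproducible IRF8 peak. Over the 62 Rab windows, EICE, ISRE and AICE were each found in 1, the CEBP motif in 4 and the PU.1 motif in 2. Among 21263 windows of all genes the shares were 2.53% for EICE, 3.35% for ISRE, 0.198% for AICE, 10.2% for CEBP and 3.13% for PU.1. The windows of Rab39 and Rab5a held none of these letters.

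The promoter window overlapped a called region in all 14 libraries for 16 of the 50 Rab genes (32%, against 19.5% of 17492 genes with a window), among them Rab5a, Rab7, Rab11a, Rab10, Rab14, Rab6a, Rab8b and, at one of its starts, Rab43, and in none for 10 (20%, against 46% of all), among them Rab3b, Rab3c, Rab25, Rab17 and Rab34. Both libraries of a group were called at 36 Rab genes in LSK cells (44.8% of all genes), 33 in cDC1 (38.5%), 23 in LMPP of WT mice (30.7%) and 18 in LMPP of IRF8KO mice (22.8%), where the 2 LMPP groups are the ones with the shortest covered length. The Rab39 window was called in 2 of 2 cDC1 libraries, 1 of 2 MDP libraries and no other. The Rab19 window was called in both LSK and both cDC1 libraries and in 1 d56kb LMPP library.

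The value used per gene is the number of bases covered by called regions within 20 kb of its span, scaled to the mean covered length of the 14 libraries and given in scaled kb. It is a length, since the lists give regions no strength. Of the 61 genes, 58 were covered in at least 2 libraries and were tested. Rab39b and Rab9b, the X-linked relatives of Rab39 and Rab9, were listed at 0 in all 14 libraries, and Rab3b, a secretory Rab of neurons and endocrine cells, was covered in 1. The median span of the 61 genes was 23.2 kb against 17.2 kb for all genes, and a window held a median of 2 other coding genes, with none for 10 genes. Differences are on the scale of log2(scaled bases + 1000), which understates changes at low values, from limma with Benjamini-Hochberg adjustment over 17372 genes.

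**Figure D1:**
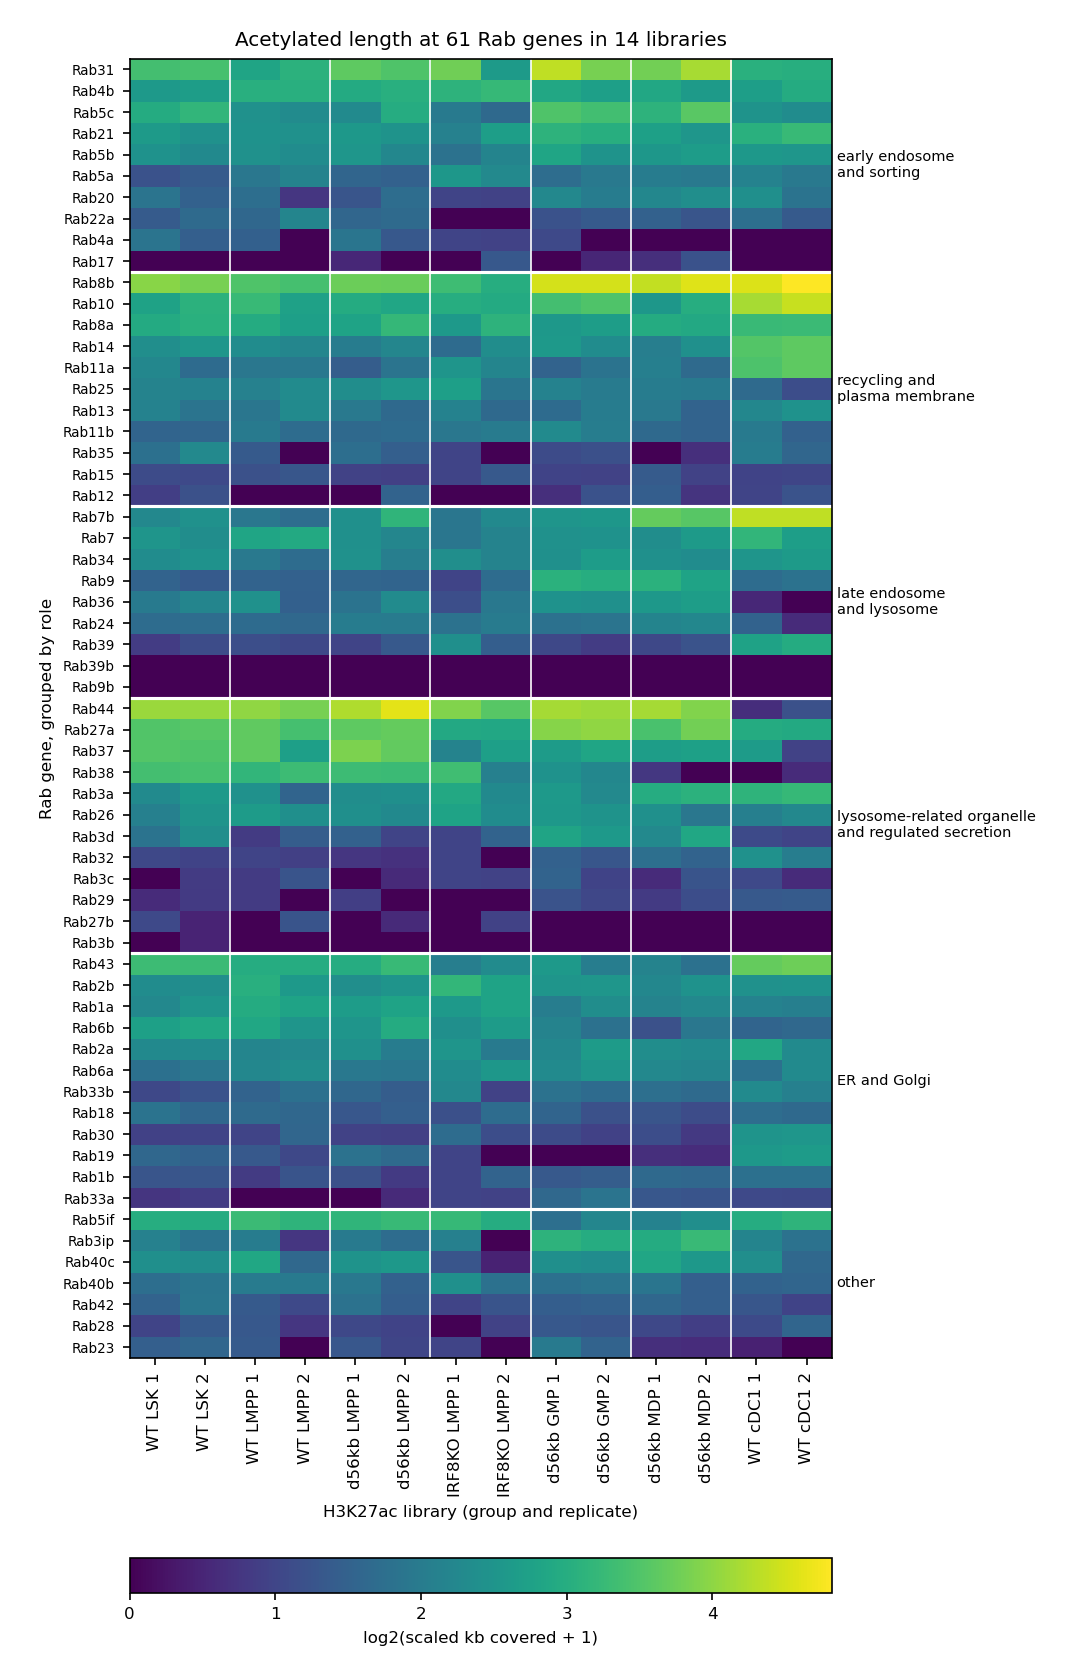
Acetylated length of the 61 Rab genes (rows, grouped by role) in the 14 H3K27ac libraries (columns, 2 per group), coloured as log2(scaled kb + 1). The cDC1 columns are bright for Rab7b, Rab39, Rab11a, Rab10 and Rab14 and dark for Rab44 and Rab38, while Rab39b and Rab9b are at 0 throughout.

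Rab genes with more acetylated chromatin in cDC1 than in LMPP were found in 5 of the 6 role groups used here, with 5 of 12 in the ER and Golgi group, 4 of 11 in recycling, 3 of 7 in the late endosome, 2 of 10 in the early endosome and 2 of 11 in lysosome-related organelles and secretion. Genes with less numbered 4 of 11 in lysosome-related organelles and secretion, 2 of 12, 1 of 11 and 1 of 7 in the ER and Golgi, recycling and late endosome groups. The role groups were not tested as groups. The largest gain was at Rab7b, a late endosomal Rab that acts in traffic from endosomes to the Golgi, and the largest losses were at Rab44 and Rab38. Of the 58 genes tested, 24 passed the threshold between WT cDC1 and WT LMPP, against a background of 29.0% of all genes. The 16 higher genes stand beside 13.1% of all genes, and the 8 lower genes beside 16.0%. The median log2 difference was 0.05 over the Rab genes and -0.11 over all genes. Without scaling to the covered length 28 Rab genes were called, 25 higher and 3 lower, against 27.5 and 6.49% of all genes. The median over all genes was then 0.286, and 80.9% of all calls were higher, against 45.1% with scaling. Directions are therefore relative to the covered length. These cells also differ in organ.

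Recycling and plasma membrane genes (11 tested) had 4 higher and 1 lower, with a median difference of 1.11. Rab11a, the Rab of the recycling endosome, covered 10.1 and 11.3 scaled kb in cDC1 and 2.76 and 2.79 in LMPP (log2 difference 1.63 ± 0.24 SE, adjusted p = 2.31e-04). The cDC1 libraries stood above all 12 other libraries, the highest of which held 4.72. The 2 regions gained there, chr9:64700901-64706009 and chr9:64711004-64716873, lay nearest to the neighbouring gene Megf11, and with regions given to the nearest gene only the Rab11a difference was -0.07. Rab10, which carries cargo to the plasma membrane, covered 17.2 and 20.4 scaled kb in cDC1 against 8.53 and 5.75 in LMPP (1.30 ± 0.20, adjusted p = 3.16e-04). It gained 4 regions, all nearest to Rab10 itself and with no other coding gene in the window, and 2 of them held cDC1 IRF8 peaks. Rab14, which links recycling endosomes and the Golgi, covered 10.6 and 11.4 scaled kb against 4.10 and 3.65 (1.30 ± 0.22, adjusted p = 7.28e-04). Rab8b, a relative of Rab8a in exocytic transport, covered 22.7 and 27.2 scaled kb against 10.3 and 9.58 (1.24 ± 0.14, adjusted p = 2.95e-05). Its close relative Rab8a held 8.59 and 8.76 against 6.77 and 5.57 and did not pass. Rab25, the epithelial member of the Rab11 group, was lower, at 2.18 and 1.21 against 3.34 and 3.98 (-0.81 ± 0.26, adjusted p = 0.031), but this call was lost without any of 3 libraries (adjusted p = 0.232 without the second cDC1, 0.0602 without the first LMPP and 0.13 without the second LMPP library) and its sign turned in a 5 kb window (0.32).

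Late endosome and lysosome genes (7 tested) had 3 higher and 1 lower. Rab7b covered 19.6 and 19.4 scaled kb in cDC1 against 2.78 and 2.30 in LMPP (2.54 ± 0.22, adjusted p = 3.73e-06). Its window holds 1 other gene, Ctse, and the region gained by this rule, chr1:131678083-131680834, lay nearest to Ctse, but given to the nearest gene only the difference was still 2.41. Rab39, a Rab of late endosomes and phagosomes, covered 5.82 and 6.77 scaled kb against 1.22 and 1.07 (1.76 ± 0.29, adjusted p = 5.10e-04). The gain was a single region, chr9:53699943-53707639, which spans the promoter printed above and holds 2 cDC1 IRF8 peaks, 0.388 and 5.62 kb inside the gene from its start. One IRF8KO LMPP library stood apart at 4.26 scaled kb, its partner held 1.71, and the 10 other progenitor libraries held 1.55 or less. Rab34, which positions lysosomes, was higher (0.74 ± 0.19, adjusted p = 0.00978), at 4.71 and 5.14 against 2.86 and 2.27, a call lost without the second cDC1 library (adjusted p = 0.0624) or the second LMPP library (0.0578). Rab36, a late endosomal and Golgi Rab, was lower, at 0.448 and 0 scaled kb against 4.39 and 1.77 (-1.68 ± 0.33, adjusted p = 0.00196). Its window also holds Rsph14, Gnaz and Bcr. Rab36 was not called by nearest gene (-1.13, adjusted p = 0.0588), with a 5 kb window (-1.14, adjusted p = 0.0849) or with regions of at least 1000 bases (-1.07, adjusted p = 0.386). Rab7 itself, the general Rab of late endosomes, covered 8.0 and 5.54 against 6.10 and 6.58 scaled kb (0.06 ± 0.19, adjusted p = 0.861). It nevertheless gained 2 regions called in both cDC1 and neither LMPP library, one of which (chr6:88007829-88009867) held both a cDC1 IRF8 and a monocyte CEBPA peak.

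Among genes of lysosome-related organelles and regulated secretion (11 tested), 2 were higher and 4 lower. Rab44, a large Rab of granule-bearing blood cells, covered 0.557 and 1.29 scaled kb in cDC1 against 15.2 and 13.2 in LMPP (-3.01 ± 0.20, adjusted p = 5.43e-07). All 12 progenitor libraries held 10.8 scaled kb or more. It lost 4 regions, of which 2 lay nearest to Cpne5. Rab38 and Rab32 are paralogs that deliver enzymes to melanosomes and related organelles, and they moved in opposite directions. Rab38 covered 0 and 0.513 scaled kb in cDC1 against 8.03 and 8.91 in LMPP (-2.94 ± 0.35, adjusted p = 4.74e-05), with 2 lost regions, chr7:88422112-88425334 and chr7:88481507-88482756, and no other coding gene in its window. Rab32 covered 4.39 and 3.14 scaled kb against 0.994 and 0.877 (1.29 ± 0.30, adjusted p = 0.00565), a call lost without the first cDC1 library (adjusted p = 0.0628). No Rab32 region met the rule for a gain, 1 region was kept, and 3 others were called in some of the 4 libraries only. Rab3a, a Rab of regulated exocytosis, was higher at 7.81 and 8.32 against 4.44 and 1.93 scaled kb (1.18 ± 0.27, adjusted p = 0.0055), lost without the second LMPP library (0.0549), and its gained region lay nearest to Ifi30. Rab37, a Rab of secretory granules, covered 5.24 and 0.937 scaled kb against 11.5 and 5.60 (-1.39 ± 0.42, adjusted p = 0.0265). This rests on the second cDC1 library and the first LMPP library, without which the adjusted p was 0.293 and 0.205. Rab27a, which docks secretory lysosomes, covered 6.80 and 6.57 scaled kb against 11.5 and 9.49 (-0.57 ± 0.15, adjusted p = 0.0102), was not called without the second cDC1 (0.0537) or the first LMPP library (0.0706), and had the other sign without scaling (0.13). Each of its 5 regions that met any rule in this comparison was kept.

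Of 12 genes of the endoplasmic reticulum and Golgi, 5 were higher and 2 lower. Rab19 covered 4.92 and 5.22 scaled kb against 1.53 and 1.07 (1.41 ± 0.29, adjusted p = 0.00271), and a gained region, chr6:39383394-39384864, held an IRF8 peak. Rab30, a Golgi Rab, covered 4.64 and 4.81 against 0.982 and 2.01 (1.23 ± 0.26, adjusted p = 0.00355). Rab43, a Golgi and phagosome Rab, covered 11.8 and 12.5 scaled kb against 6.95 and 6.91 (0.73 ± 0.20, adjusted p = 0.0151), and the call was lost by leaving out any 1 of the 4 libraries (adjusted p = 0.0546 to 0.0809). Its one lost region, chr6:87778044-87779587, lay nearest to Gp9. Rab33a, a Golgi Rab linked to autophagy, covered 1.09 and 1.07 scaled kb in cDC1 while both LMPP libraries listed it at 0 (adjusted p = 0.00733). Given to the nearest gene only, the Rab33a difference was 0, with LSK cells as the reference it was 0.26 (adjusted p = 0.554), and in a fit of the 4 libraries alone the adjusted p was 0.0563. Rab1b was higher (0.73, adjusted p = 0.04), while its paralog Rab1a, with which it shares endoplasmic reticulum to Golgi transport, was lower at 3.41 and 3.22 against 6.85 and 5.92 scaled kb (-0.77 ± 0.18, adjusted p = 0.00535). The Rab1a call ended without scaling (-0.12, adjusted p = 0.738), by nearest gene (-0.30, adjusted p = 0.25) and with LSK cells as the reference (-0.28, adjusted p = 0.311). Rab6b was also lower, at 1.95 and 2.07 against 6.35 and 4.74 (-1.11 ± 0.25, adjusted p = 0.00509), while its paralog Rab6a held 2.48 and 3.96 against 3.70 and 4.16 and did not pass. The Rab6b call was lost without scaling (-0.49, adjusted p = 0.217). The Rab1b difference was 0.215 both by nearest gene (adjusted p = 0.649) and with a 5 kb window (adjusted p = 0.578). The Rab1b call was lost without either cDC1 library (0.131 and 0.132) or the first LMPP library (0.189).

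Of the early endosome and sorting genes (10 tested), 2 were higher and none lower, and their median difference was 0.02. Rab21, of integrin uptake, covered 7.32 and 8.44 scaled kb against 4.46 and 4.43 (0.70 ± 0.19, adjusted p = 0.0143), and Rab20, of phagosome maturation, 4.31 and 2.59 against 2.35 and 0.695 (0.87 ± 0.31, adjusted p = 0.0489). The Rab21 difference was 0.22 by nearest gene (adjusted p = 0.5) and 0.12 with a 5 kb window (adjusted p = 0.809). Rab21 was not called without the second cDC1 (adjusted p = 0.0957) or the second LMPP library (0.0501), nor Rab20 without the first cDC1 (0.316) or the second LMPP library (0.376). Rab5a, the Rab of early endosomes, covered 3.40 and 2.88 scaled kb in cDC1 and 2.78 and 3.45 in LMPP, groups that overlap (0.01 ± 0.19). Rab22a, an early endosomal Rab of phagosome recycling, held 2.38 and 1.59 against 2.04 and 3.59 (-0.34 ± 0.25, adjusted p = 0.356). None of the 7 genes of other roles passed. Of the 24 calls of this comparison, 14 held on leaving out each library in turn, and 8 held under all 16 alternatives run: Rab7b, Rab39, Rab10, Rab8b, Rab19, Rab30, Rab38 and Rab44.

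**Figure D2:**
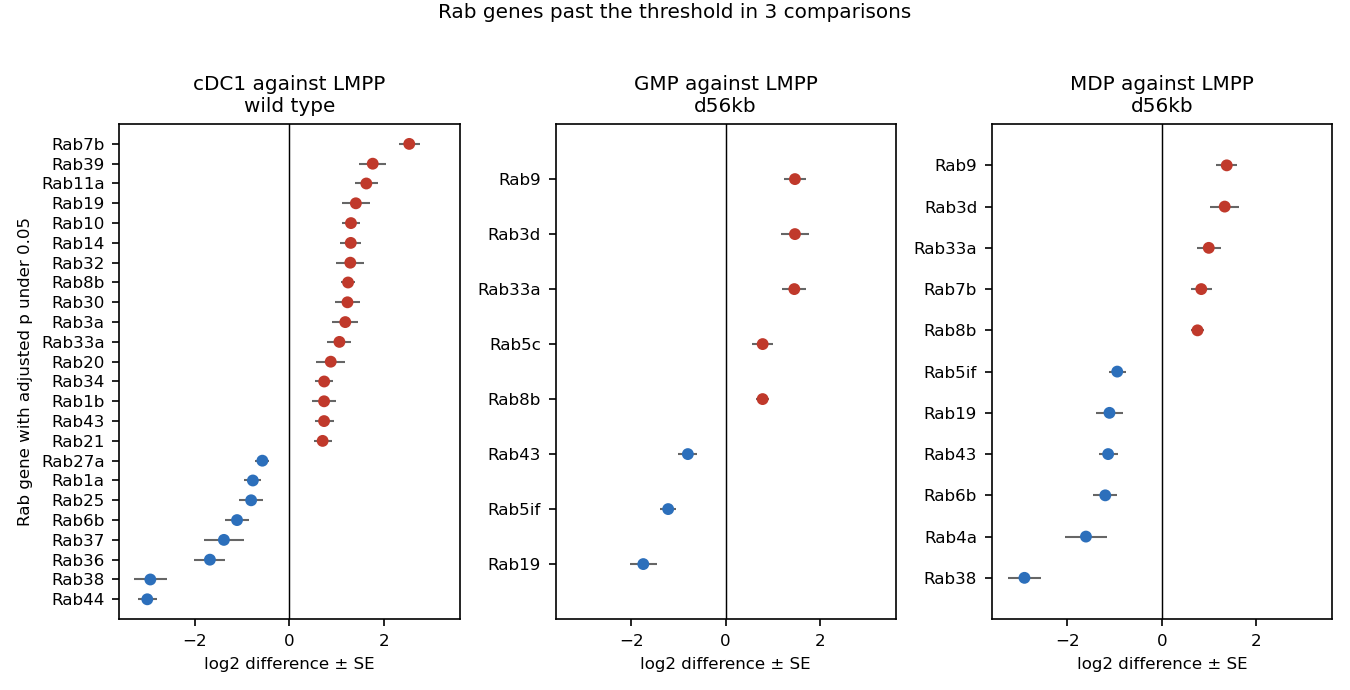
Log2 difference in acetylated length (points, with SE as bars) of the Rab genes with an adjusted p under 0.05 in WT cDC1 against WT LMPP, d56kb GMP against d56kb LMPP and d56kb MDP against d56kb LMPP; red is higher and blue lower. There are 16 higher and 8 lower genes in cDC1, 5 and 3 in GMP and 5 and 6 in MDP.

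Counted by region, gains outnumbered losses in cDC1, at Rab genes as over the whole genome (6748 gained and 2693 lost regions). These counts are not scaled to the covered length, which was 33.9 to 48.7 Mb in cDC1 and 22.2 to 25 Mb in WT LMPP. A region counts as gained when called in both cDC1 libraries and in neither LMPP library, as lost in the reverse case, and as kept when called in all 4; there is no test, since 2 libraries against 2 give no two-sided permutation p below 0.333. Of the 61 genes, 27 gained at least 1 region (24.1% of all genes did), 6 lost one (10.5%) and 46 kept one (47.2%). Among genes tested these shares were 46.6, 10.3 and 79.3% for Rab genes and 30.4, 13.3 and 59.5% for all genes. Gains without losses were seen at 26 genes (21.0% of all genes), losses without gains at 5 (7.44%), namely Rab37, Rab38, Rab43, Rab44 and Rab6b, and both at 1, Rab5if (3.09%). Kept regions only were found at 19 (26.2%), among them Rab27a, Rab32 and Rab6a, and no such region at 10 (42.2%). The number of Rab genes with a lost region was 11 without the first cDC1 library (14.8% of all genes), 20 without the first LMPP library (39.4%) and 21 without the second (30.2%). That of Rab genes with a gained region moved between 28 and 38. The gained counts stand without shares over all genes and are not read as particular to the Rab genes. Of the 37 gained regions, 19 held a cDC1 IRF8 peak (51.4%, against 53.6% of all gained regions), as did 24 of 69 kept regions (34.8%, against 28.3%) and 0 of 11 lost regions (6.54% of all lost regions). Monocyte CEBPA peaks lay in 6 gained (16.2%, against 16.8%), 1 lost (9.09%, against 13.4%) and 26 kept regions (37.7%, against 29.8%). The regions set beside those of Rab genes are all such regions, at any distance from a gene.

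GMP and MDP, both from d56kb mice, were compared with d56kb LMPP, which serve as the control of both comparisons. In each, few Rab genes differed, and the late endosomal Rab9 and the granule Rab Rab3d were higher. In GMP 8 of 58 genes passed (5 higher, 3 lower), against 14.4% of all genes (7.66% higher and 6.76% lower), and in MDP 11 passed (5 higher, 6 lower), against 13.3% (6.75% and 6.52%). The median difference was 0.12 in GMP and 0.11 in MDP over the Rab genes, and 0.00 over all genes in each. The effect of the deletion on these 2 cell types cannot be told apart from that of the cell type.

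Rab9, which returns mannose 6-phosphate receptors from late endosomes to the Golgi, covered 7.4 and 6.96 scaled kb in GMP and 7.49 and 5.92 in MDP, against 1.99 and 1.93 in d56kb LMPP. All 10 other libraries held 2.53 or less. The difference was 1.47 ± 0.22 in GMP (adjusted p = 9.47e-04) and 1.37 ± 0.22 in MDP (0.00156). The gain was one region, chrX:166495001-166500666 in GMP and chrX:166495145-166500760 in MDP, that held a monocyte CEBPA peak and lay nearest to the neighbouring Tceanc; given to the nearest gene, Rab9 was not called (0.62, adjusted p = 0.194 in GMP and 0.40, adjusted p = 0.506 in MDP). Rab3d, of exocrine and mast cell granules, covered 6.03 and 5.10 scaled kb in GMP and 3.84 and 6.34 in MDP against 1.82 and 0.992 (1.47 ± 0.30, adjusted p = 0.00594, and 1.33 ± 0.30, adjusted p = 0.0112). Its promoter window was called in both GMP, both MDP and both LSK libraries and in no other. The GMP call of Rab3d was lost without the first GMP library (adjusted p = 0.062) or the second d56kb LMPP library (0.0766), and the MDP call without the second MDP library (0.124) or the second d56kb LMPP library (0.121).

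Rab8b covered 21.8 and 21.6 scaled kb in GMP and 19.7 and 22.9 in MDP, against 12.3 and 12.1 in d56kb LMPP (0.78 ± 0.14, adjusted p = 0.00264, and 0.75 ± 0.14, adjusted p = 0.0036). Its progenitor libraries outside these 2 groups held 7.01 to 14.5. Rab33a held 2.10 and 2.61 scaled kb in GMP and 1.48 and 1.39 in MDP against 0 and 0.496 (1.45, adjusted p = 0.00222, and 0.99, adjusted p = 0.0212), with a gained region nearest to Aifm1. Given to the nearest gene, Rab33a was not called in either (0.53, adjusted p = 0.107, and 0.25, adjusted p = 0.567). The Rab33a call in MDP was lost without either MDP library (0.115 and 0.0893) or the first d56kb LMPP library (0.182). Rab5c, an early endosomal paralog of Rab5a, held 10.2 and 9.24 scaled kb in GMP against 3.92 and 6.89 (0.78 ± 0.23, adjusted p = 0.0366), lost without the first or second GMP library (0.201 and 0.127) or the first d56kb LMPP library (0.339). In MDP it held 7.71 and 10.9 and did not pass.

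Lower in both were Rab19, Rab43 and Rab5if. Rab19 was listed at 0 in both GMP libraries and covered 0.567 and 0.537 scaled kb in MDP, against 2.51 and 2.19 in d56kb LMPP (adjusted p = 0.00159 and 0.0229). In GMP it lost the region chr6:39379328-39381756, which overlaps the promoter printed above and holds a cDC1 IRF8 peak. Rab43 covered 5.06 and 3.10 scaled kb in GMP and 3.46 and 2.49 in MDP, against 6.94 and 8.48 (-0.80 ± 0.20, adjusted p = 0.0178, and -1.14 ± 0.20, adjusted p = 0.00257). It lost chr6:87777243-87780116, nearest to Gp9, and chr6:87805516-87806129 within its own span in each comparison. By nearest gene Rab43 was not called (-0.19, adjusted p = 0.733, and -0.53, adjusted p = 0.15), nor with a 5 kb window (adjusted p = 0.726 and 0.149). Rab5if fell from 7.92 and 8.49 scaled kb to 2.41 and 3.6 in GMP (-1.22 ± 0.18, adjusted p = 6.47e-04) and 3.41 and 4.18 in MDP (-0.94 ± 0.18, adjusted p = 0.00355), but its lost regions lay nearest to Sla2, and by nearest gene the differences were -0.26 and -0.04. The Rab43 call in GMP was lost without the second GMP library (adjusted p = 0.216) or the second d56kb LMPP library (0.155), and the Rab19 call in MDP without any 1 of the 4 libraries (0.0965 to 0.136).

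Rab38 and Rab7b separated MDP from GMP, with 2 of 58 genes called against 1.91% of all genes (0.956% higher and 0.950% lower), 1 in each direction. Without scaling 1 was called, lower in MDP (0.639% of all genes were higher and 1.1% lower). Rab38 covered 0.716 and 0 scaled kb in MDP, 4.47 and 3.70 in GMP and 8.92 and 8.74 in d56kb LMPP. MDP was lower than GMP (-1.95 ± 0.35, adjusted p = 0.0147) and than LMPP (-2.91 ± 0.35, adjusted p = 2.33e-04), while GMP against LMPP did not pass (-0.96 ± 0.35, adjusted p = 0.0994). MDP lost the regions chr7:88422417-88427540 and chr7:88481448-88482975 of Rab38, and GMP kept 3 regions. Rab7b covered 11.8 and 10.8 scaled kb in MDP, 4.70 and 4.84 in GMP and 4.36 and 7.92 in LMPP, and MDP was higher than GMP (1.1 ± 0.22, adjusted p = 0.0253) and than LMPP (0.83 ± 0.22, adjusted p = 0.0243). Neither call between MDP and GMP held when any 1 of the 4 libraries was left out (adjusted p = 0.0514 to 0.152 for Rab38 and 0.119 to 0.201 for Rab7b), nor that of Rab7b against LMPP without either MDP library (0.151 and 0.0892) or the first LMPP library (0.238). The loss of Rab38 in MDP against LMPP held under all 15 alternatives run.

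Of the other Rab genes of antigen handling and granules, none passed in GMP or MDP against LMPP. Rab32 was at 1.81 and 1.43 scaled kb in GMP and 2.41 and 1.88 in MDP against 0.689 and 0.620 in LMPP (0.66, adjusted p = 0.189, and 0.92, adjusted p = 0.0605). The groups do not overlap. The differences of Rab27a were 0.33 and -0.03, of Rab37 -1.02 and -1.05, of Rab7 0.13 and 0.18, of Rab11a 0.06 and 0.23, of Rab5a 0.30 and 0.45 and of Rab22a -0.34 and -0.24.

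Lower in MDP and not called in GMP were Rab4a, of fast endosomal recycling, and Rab6b. Rab4a was listed at 0 in both MDP libraries, held 1.1 and 0 scaled kb in GMP and 2.67 and 1.52 in d56kb LMPP (adjusted p = 0.0316 for MDP). Rab6b held 1.28 and 2.75 in MDP against 4.74 and 6.83 (-1.20 ± 0.25, adjusted p = 0.00747). Leaving out any 1 of the 4 libraries ended the Rab4a call (adjusted p = 0.0821 to 0.208), and that of Rab6b ended without the first MDP (0.0919) or the second LMPP library (0.0937). Leaving out any 1 MDP or d56kb LMPP library lowered the number of Rab genes called in MDP, and the shares of all genes called as well.

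By region, 16 Rab genes gained and 11 lost at least 1 region in GMP (17.6 and 12.6% of all genes), and 12 gained and 11 lost in MDP (14.7 and 13.9%). Kept regions were found at 49 genes in each (56.6 and 56.0%). Among genes tested, 27.6, 19 and 84.5% of Rab genes gained, lost and kept a region in GMP (22.2, 15.9 and 71.3% of all genes), and 20.7, 19 and 84.5% in MDP (18.5, 17.5 and 70.5%). Gains without losses were seen at 13 Rab genes in GMP (14.6%) and 11 in MDP (11.9%), losses without gains at 8 (9.54%) and 10 (11.1%), and both at 3 (3.06%) and 1 (2.81%). Rab35, Rab6b and Rab8b had both in GMP and Rab27a in MDP. No region met a rule at 7 Rab genes in GMP (37.1%) and 6 in MDP (37.9%). Kept regions only were seen at 30 genes in GMP (35.7%) and 33 in MDP (36.4%), among them Rab7, Rab11a, Rab22a, Rab7b and Rab32 in both. Rab10 gained 3 regions in GMP and none in MDP, and Rab3c and Rab33b gained regions in both. The monocyte CEBPA peaks marked 4 of 20 gained regions in GMP (20%, against 42.1% of all gained regions) and 4 of 13 in MDP (30.8%, against 53.8%), at Rab9, Rab3ip and Rab33b in both, Rab31 in GMP and Rab5a in MDP. No lost Rab region held one (4.13 and 3.26% of all lost regions), and 32 of 101 kept regions in GMP (31.7%, against 30.0%) and 32 of 96 in MDP (33.3%, against 31.4%) did. Peaks of cDC1 IRF8 lay in 3 gained, 3 lost and 24 kept regions in GMP (11.3, 12.0 and 21.1% of all such regions) and in 2, 1 and 27 in MDP (22.6, 9.12 and 22.6%). All such regions are again those at any distance from a gene. Single libraries moved the counts of genes. The number of gaining Rab genes was 30 and 28 without the first and second GMP library (32.1 and 28.3% of all genes), and 28 and 22 without the first and second MDP library (33.1 and 25.9%). Without the first d56kb LMPP library 28 Rab genes lost a region in GMP (28.2%) and 29 in MDP (29%), where 21 gained one (19.2%). Without the second, 27 lost one in GMP (30.9%) and 26 in MDP (32.1%).

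**Figure D3:**
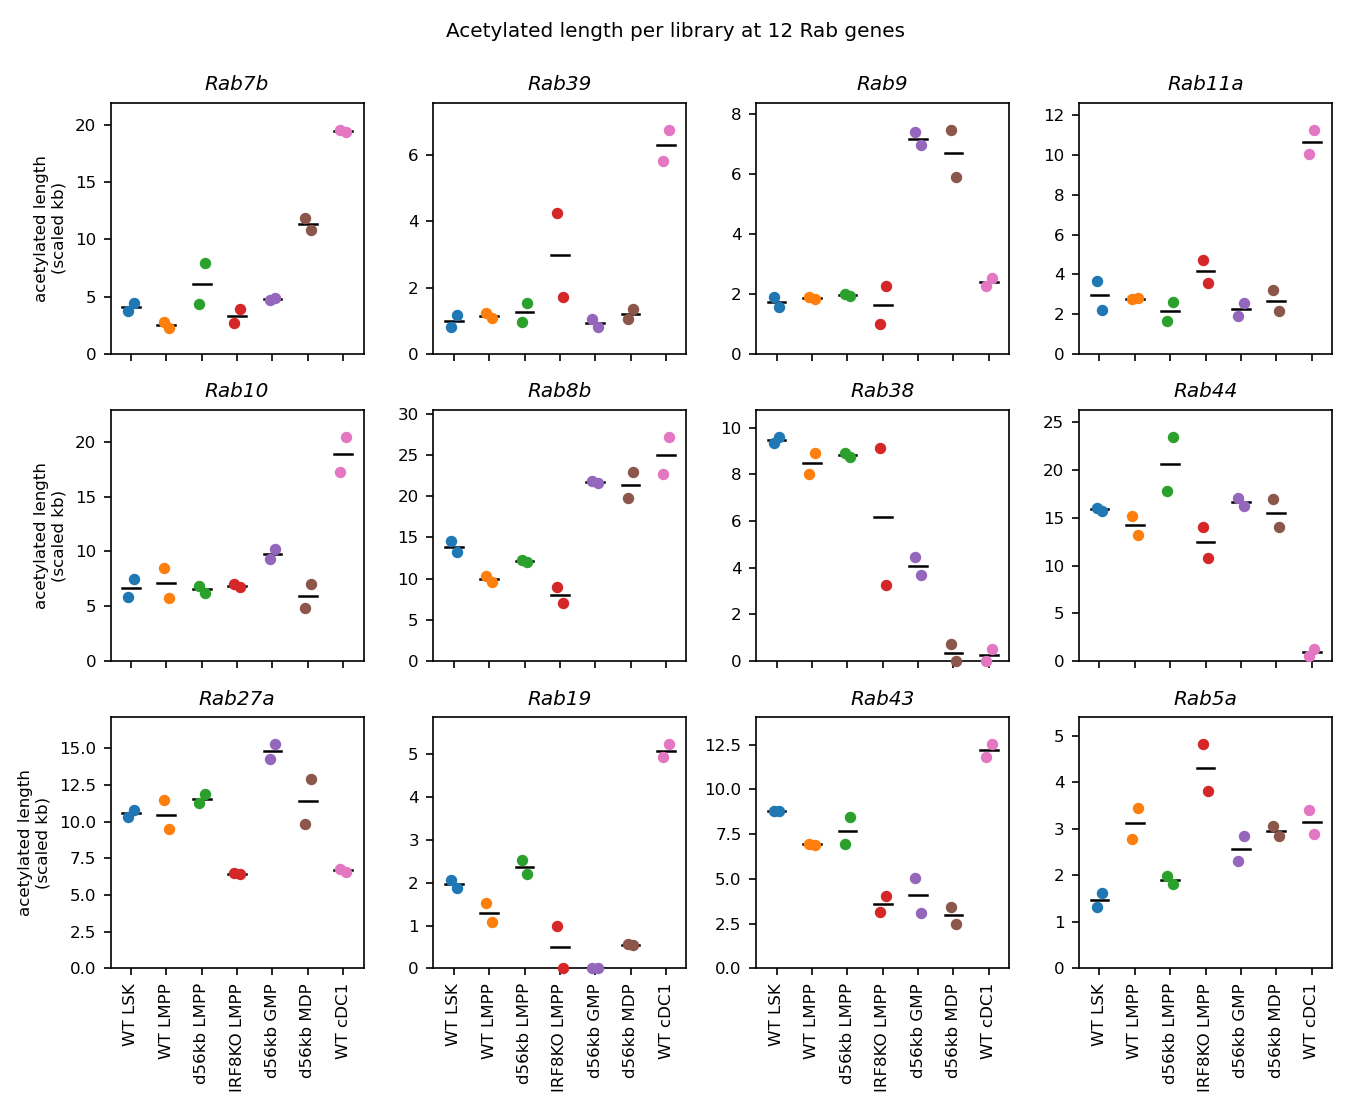
Acetylated length in scaled kb at 12 Rab genes in each library (points) of the 7 H3K27ac groups, with group means as bars. Rab7b, Rab39, Rab11a and Rab10 are highest in the 2 cDC1 libraries, Rab9 in the GMP and MDP libraries, and Rab38 is at 0.716 scaled kb or less in MDP and cDC1.

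Within LMPP, no Rab gene differed between d56kb and WT by limma (0 of 58, against 0.484% of all genes, 0.391% higher and 0.0921% lower), and 5 had an unadjusted p under 0.05 (13.7% of all genes did). The lowest was for Rab7b, at 4.36 and 7.92 scaled kb in d56kb and 2.78 and 2.30 in WT (0.97 ± 0.22, adjusted p = 0.0757). The others were Rab7 (-0.56), Rab5a (-0.51), Rab44 (0.50) and Rab34 (0.42). Without scaling 6 genes were called, all higher in d56kb (9.01% of all genes were higher and 0.357% lower), with a median of 0.335 over all genes. IRF8KO LMPP, compared with the same WT libraries, had 6 genes called of 58 (1 higher, 5 lower), against 7.33% of all genes (2.68% higher, 4.65% lower). Without scaling 2 were called, both lower (0.219% of all genes were higher and 3.16% lower), with a median of -0.237 over all genes. At an unadjusted p under 0.05, 11 stand beside 20.3% of all genes.

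Rab22a was listed at 0 in both IRF8KO libraries and covered 2.04 and 3.59 scaled kb in WT LMPP (adjusted p = 0.00318), and it is the call that held without each library in turn. All 12 other libraries held 1.31 scaled kb or more, and its promoter window was called in each of them. Rab7 held 2.69 and 3.43 scaled kb against 6.10 and 6.58 (-0.86 ± 0.19, adjusted p = 0.0211), Rab27a 6.51 and 6.42 against 11.5 and 9.49 (-0.61 ± 0.15, adjusted p = 0.0266) and Rab43 3.18 and 4.03 against 6.95 and 6.91 (-0.79 ± 0.20, adjusted p = 0.0332). Rab40c, part of a ubiquitin ligase, held 1.40 and 0.381 against 6.26 and 2.09 (-1.38 ± 0.37, adjusted p = 0.0407), and Rab33a 0.983 and 0.945 against 0 in both (adjusted p = 0.0379). These libraries are the shallowest of the series, with 1.26 and 1.47 M tags and a summed coverage below that of WT LMPP; the part of depth in these calls was not tested. In a fit of the 4 libraries alone none of the 6 was called (adjusted p = 0.575 for each). The count fell without either WT LMPP library and rose without either IRF8KO library, and so did the shares of all genes called higher and lower. Rab27a was lost without the first WT library (0.12), Rab7 and Rab33a without either WT library (0.0571 and 0.065 for Rab7, 0.0911 and 0.0731 for Rab33a), Rab40c without the first WT (0.246) or second IRF8KO library (0.118), and Rab43 without either WT library (0.106 and 0.0835) or the first IRF8KO library (0.0773).

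Reproducible IRF8 peaks (called in both libraries) of cDC1 lay within 20 kb of 39 of the 61 Rab genes, against 45.8% of all genes, with 89 peaks in all. Rab7b had 7 such peaks, Rab10 and Rab37 6 each, Rab8b 5 and Rab31 4. In monocytes 12 genes had an IRF8 peak (16.8% of all genes), of which Rab7 had the most with 3. Without the first monocyte IRF8 library the number was 20, which stands without its share over all genes and is not read as particular to the Rab genes. CEBPA peaks of monocytes lay at 39 genes (43.4% of all genes), with 94 peaks, led by Rab31 and Rab8b with 7 each, Rab37 with 6 and Rab27a, Rab3c and Rab7 with 5 each. No Rab gene had a CEBPA peak of cDC1, where only 2 peaks genome-wide were called in both libraries and 4 of 21887 genes (0.0183%) had one. Among genes tested, cDC1 IRF8 peaks were found at 67.2% of Rab genes and 56.3% of all genes, and monocyte CEBPA peaks at 65.5 and 53.9%.

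The overlap of the IRF8 peaks of cDC1 with acetylated regions was counted in each group, without a test, and moves with the covered length. Peaks at Rab genes lie within 20 kb of a gene span by definition, while those set beside them are all peaks, at any distance from a gene. The shares are therefore not read as particular to the Rab genes. Of the 89 peaks at Rab genes, 54 were in regions called in both cDC1 libraries (60.7%, against 37.8% of all cDC1 IRF8 peaks) and 17 in both WT LMPP libraries (19.1%, against 9.59%). In WT LSK cells 37 were (41.6%, against 22.4%), and in d56kb LMPP 24 (27%, against 15.9%). Of the 94 monocyte CEBPA peaks, 48 were acetylated in both GMP libraries (51.1%, against 44.4%) and 46 in both MDP libraries (48.9%, against 43.2%). The gene nearest to the peak was a Rab gene for 64 of the 89 IRF8 peaks and 68 of the 94 CEBPA peaks.

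Peaks lay both near starts and deep in the genes. The IRF8 peak at Rab5a (chr17:53478803-53479133) was centred 0.266 kb before the start and overlapped its printed promoter, the only Rab promoter window with a cDC1 IRF8 peak, and that window was acetylated in all 14 libraries. At Rab32 the IRF8 peak, chr10:10557341-10557666, lay 704 bases inside the gene. Promoter windows of 4 genes, Rab7, Rab43, Rab5b and Rab6a, overlapped a monocyte CEBPA peak. At Rab27a one cDC1 IRF8 peak (chr9:73089574-73089955) overlapped both a monocyte IRF8 and a monocyte CEBPA peak, 25.6 kb inside the gene, in a region acetylated in 13 of the 14 libraries. At Rab37, 5 of the 6 cDC1 IRF8 peaks overlapped a monocyte CEBPA peak, although the gene covered less in cDC1 than in LMPP. Rab38 had 3 cDC1 IRF8 peaks, none in a region called in cDC1, and Rab44 had none.

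**Figure D4:**
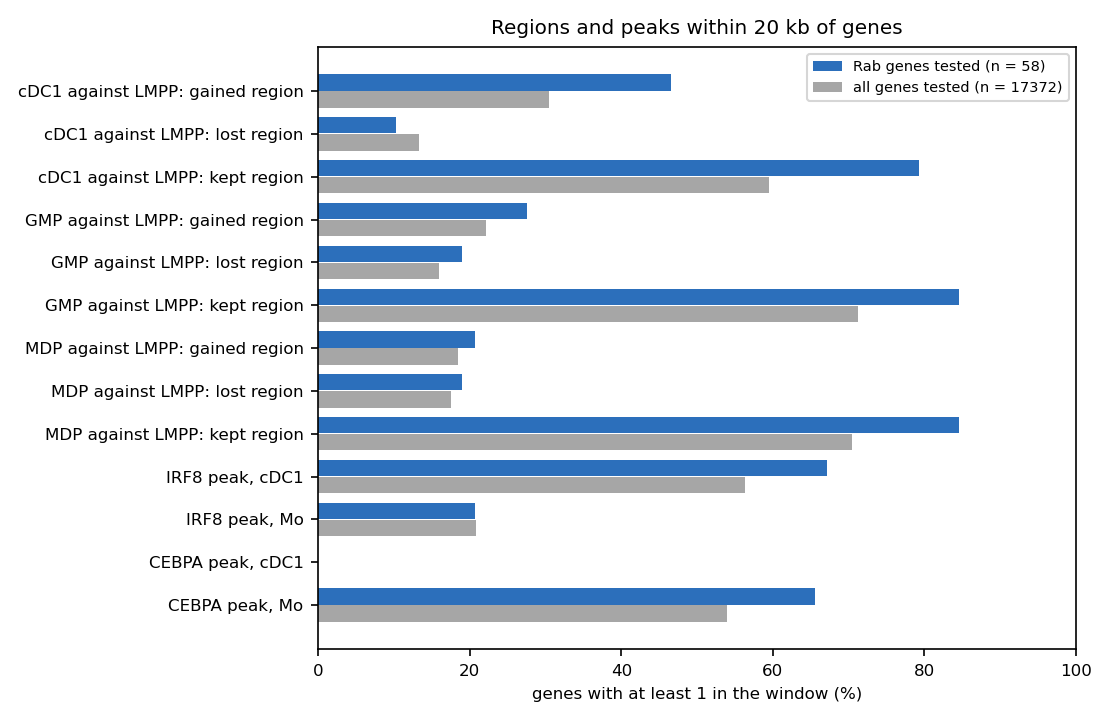
Percentage of genes with at least 1 gained, lost or kept H3K27ac region, or at least 1 reproducible factor peak, within 20 kb of the span, for the 58 Rab genes tested (blue) and all 17372 genes tested (grey). The largest gap is at kept regions in cDC1, 79.3 against 59.5%, and the bars for cDC1 CEBPA peaks are at 0 and 0.023%.

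Of 98 tested genes for GEFs, GAPs, GDI and prenylation proteins and effectors, 25 were higher and 24 lower in WT cDC1 than in WT LMPP, beside 13.1% higher and 16.0% lower of all genes, with a median difference of -0.20 (-0.11 over all genes). Without scaling 40 were higher and 7 lower (27.5 and 6.49% of all genes). Leaving out the second cDC1 library lowered both counts, and both shares of all genes as well. Higher were Rabep1, a Rab5 effector (14.9 and 13.8 scaled kb against 0.782 and 0.871, difference 3.07), Tbc1d4, a GAP for Rab10 (3.20), Rab11fip1, an effector of Rab11 (2.68), Fyco1, an effector of Rab7 (22.9 and 27.2 against 3.05 and 3.17, 2.66), Lrrk2, a kinase of Rab proteins (2.50) and Gdi2 (1.75). Lower were Osbpl1a, an effector of Rab7 (2.48 and 2.26 against 23.3 and 18.1, -2.68), Tbc1d2, a GAP for Rab7 (-1.65), Unc13d, the Rab27a effector of lytic granules (-1.09), and Hps4, a subunit of the GEF of Rab32 and Rab38 (-0.46). Effectors of Rab7 were thus found in each direction. All of these had an adjusted p under 0.05 by limma.

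In d56kb GMP 2 of the 98 were higher and 13 lower than in d56kb LMPP, and in MDP 5 were higher and 12 lower, again against shared controls. Beside these stand 7.66% higher and 6.76% lower of all genes in GMP, and 6.75 and 6.52% in MDP. In GMP both counts and both shares of all genes fell when any 1 GMP or d56kb LMPP library was left out. In MDP they fell as well when any 1 MDP or d56kb LMPP library was left out. Rab11fip4, an effector of Rab11, was higher in each (1.73 and 1.56), and Osbpl1a (-1.16 and -1.56), Dennd3, a GEF (-1.66 and -1.1), and Tbc1d10b, a GAP (-1.14 and -0.77), were lower in each. Fyco1 and Rin2, a Rab5 GEF, were higher in MDP than in GMP (0.99 and 1.81), but with any 1 of the 4 libraries left out no regulator was called higher (10 to 15 had an unadjusted p under 0.05 in either direction). None was called between d56kb and WT LMPP by limma (0.391% of all genes were higher and 0.0921% lower), where 18 had an unadjusted p under 0.05. Without scaling 19 were called there, all higher (9.01% of all genes). In IRF8KO LMPP 3 were higher and 9 lower (2.68 and 4.65% of all genes), with Unc13d at 4.31 and 4.33 scaled kb against 9.0 and 6.55 in WT (-0.71 ± 0.18, adjusted p = 0.0354). In the fit of those 4 libraries alone no regulator was called (the lowest adjusted p was 0.575, and 16 had an unadjusted p under 0.05). Without scaling, over all 14 libraries, 0 were higher and 10 lower (0.219 and 3.16% of all genes). With scaling, both counts and both shares of all genes fell without either WT library and rose without the first IRF8KO library. Without the second IRF8KO library both shares rose, while more regulators were lower and fewer higher.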

How the data were processed

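Chromatin immunoprecipitation with sequencing gave H3K27ac regions in 14 libraries and IRF8 or CEBPA peaks in 8. The authors deposited 1 list of region positions per library (a value of another kind than counts: coordinates on mm10, with no strength per region used here). Reads were aligned with Bowtie 1.1.2 and regions called with HOMER 4.9, per the submitters' processing notes. The second CEBPA library of a cell type was called against the same input as the first, per the file headers, and 7 input samples were not analysed here as libraries.

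From these positions the bases covered within 20 kb of each gene span were summed, scaled to the mean covered length and tested as log2(scaled bases + 1000) with limma 3.58.1 in R 4.3.3 over all 14 libraries (7 residual degrees of freedom), with Benjamini-Hochberg adjustment over the 17372 genes covered in at least 2 libraries, at 0.05. The test was tried on simulated data. Peaks count as reproducible when both libraries overlap by at least 1 base. Full values are given for the 10 highest and 10 lowest called Rab genes per comparison whose groups do not overlap, and always for 10 chosen genes such as Rab7 and Rab43. The members and lists were chosen with earlier results of these data known. Alternatives covered scaling, added bases, filters, windows, nearest gene, region width, reproducible regions, a block, a covariate, the libraries in the fit and leaving out each library.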

Additional observations from a re-analysis of the deposited data

How the results depend on the processing

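The lists hold positions only, so a change in strength within a region that stays called is not seen. The covered length was lowest in IRF8KO LMPP, which had the fewest tags, and next lowest in WT LMPP. Both WT LMPP libraries held more tags than the first MDP library (1.83 M), yet covered less (22.2 to 25 Mb against 30.7 Mb). Tags in called regions made up 15.03 to 23.74% in WT LMPP, 42.23 to 47.39% in MDP and 16.36 to 52.34% in cDC1. The part of depth in what is called was not tested. Over 94 single-gene results, 1435 alternatives gave 1141 with the same direction and side of the threshold, 193 no longer past it, 34 newly past it and 67 with the other sign. Of the 67, 3 were of results called in the fit reported, all in cDC1: Rab27a without scaling (0.13), Rab25 with a 5 kb window (0.32) and Rab11a with regions given to the nearest gene only (-0.070). The other 64, in 25 results, were past the threshold neither there nor in the alternative; their values are given last. The cause of the other changes below was not tested. Regions of both replicates are those that overlap a region of the other replicate by at least 1 base, kept at their full width. This makes the libraries of a group more alike by construction, though widths may still differ.

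The percentages beside each count below are of all genes, first higher and then lower. Rab genes called in cDC1 numbered 15 by nearest gene (12.5 and 14.2%) and 40 with regions of both replicates (25.6 and 35.3%). Leaving out any 1 library of the 2 groups lowered the count, and the shares of all genes as well. In GMP they numbered 16 with a 50 kb window (8.99 and 8.58%), 5 by nearest gene (7.04 and 6.21%) and 29 with regions of both replicates (22.1 and 18%). Here too the count and the shares of all genes were lower with any 1 library of the 2 groups left out. In MDP Rab genes called numbered 7 without the filter on low values (3.77 and 3.61%) and 7 with a 5 kb window (5.74 and 5.45%). They numbered 5 by nearest gene (6.47 and 6.16%) and 28 with regions of both replicates (21.6 and 17.5%). The count and the shares of all genes were lower with any 1 library of the 2 groups left out. Between MDP and GMP Rab genes called numbered 1 without scaling (0.639 and 1.1%), 0 without the filter (0.489 and 0.48%) and 0 with a 5 kb window (0.806 and 0.917%). They numbered 1 by nearest gene (0.941 and 0.875%) and 1 with regions of at least 1000 bases (1.71 and 2.11%). With regions of both replicates the count was 11 (9.75 and 11.7%). It was 1 with the percentage of tags in regions as a covariate (0.576 and 0.53%). The shares of all genes were lower with any 1 library of the 2 groups left out. Between d56kb and WT LMPP Rab genes called numbered 6 without scaling (9.01 and 0.357%) and 1 with a 50 kb window (0.442 and 0.0936%). They numbered 4 with regions of at least 1000 bases (6.18 and 1.52%) and 20 with regions of both replicates (19.2 and 17.8%). Between IRF8KO and WT LMPP they numbered 2 without scaling (0.219 and 3.16%), 3 with a 5 kb window (2.29 and 4.21%) and 2 by nearest gene (2.9 and 3.85%). They numbered 2 with regions of at least 1000 bases (2.98 and 8.44%) and 27 with regions of both replicates (18 and 21%). In a fit of the 4 libraries 0 were called (0 and 0%). The count and the shares of all genes fell without either WT library and rose without either IRF8KO library.

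With a 5 kb window, 17 Rab genes gained a region in cDC1, 10 gained and 7 lost one in GMP, and 5 gained one in MDP. Leaving out 1 library gave 6 to 21 losing genes in cDC1, 20 to 30 gaining and 13 to 28 losing genes in GMP, and 18 to 28 gaining and 13 to 29 losing genes in MDP. IRF8 peaks of monocytes in either library marked 21 genes, and 14 to 20 leaving out 1 library. The region and peak counts of this paragraph stand without shares over all genes and are not read as particular to the Rab genes. The replicate numbers do not pair the libraries by any label, and over 21 pairs of groups the correlation of same-numbered libraries was -0.0684 to 0.0626. With the replicate number as a block 24 Rab genes were called in cDC1 (12.9% of all genes higher and 15.4% lower), 8 in GMP (7.38 and 6.75%) and 12 in MDP (6.57 and 6.39%). There were 2 between MDP and GMP (0.875 and 0.812%), 0 between d56kb and WT LMPP (0.115 and 0.023%) and 6 between IRF8KO and WT LMPP (2.43 and 4.08%). Without Rab3ip and Rab5if, an alternative chosen after seeing the data, the counts in the same order were 24, 7, 10, 2, 0 and 6. The alternatives given for the regulators and effectors were also chosen after seeing the data.

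Values of the other sign in results without a call were as follows, as log2 differences. Without scaling the values were 0.21 for Rab22a in cDC1, -0.060 for Rab7 between MDP and GMP, 0.15 for Rab11a, 0.15 for Rab22a and 0.048 for Rab32 between d56kb and WT LMPP. They were also -0.0096 for Rab7b between IRF8KO and WT LMPP. With a 50 kb window the values were -0.35 for Rab11a in GMP, 0.17 for Rab22a and 0.13 for Rab27a in MDP, 0.14 for Rab37 between MDP and GMP. They were also 0.33 for Rab11a and -0.064 for Rab43 between d56kb and WT LMPP, -0.22 for Rab7b between IRF8KO and WT LMPP. With a 5 kb window the values were -0.040 for Rab11a and -0.0098 for Rab7 in GMP, -0.069 for Rab43 between d56kb and WT LMPP, 0.11 for Rab38 and -0.056 for Rab7b between IRF8KO and WT LMPP. By nearest gene the values were -0.25 for Rab11a in GMP, 0.21 for Rab37 and -0.17 for Rab7 between MDP and GMP, 0.0002 for Rab11a and -0.069 for Rab43 between d56kb and WT LMPP. They were also -0.056 for Rab7b between IRF8KO and WT LMPP. With regions of at least 1000 bases the values were -0.35 for Rab5a and -0.11 for Rab7 in cDC1, -0.086 for Rab11a and -0.041 for Rab5a in GMP, 0.052 for Rab27a in MDP. They were also -0.058 for Rab7 between MDP and GMP, 0.37 for Rab22a and -0.34 for Rab38 between d56kb and WT LMPP, -0.76 for Rab11a between IRF8KO and WT LMPP. With regions of both replicates the values were -0.10 for Rab5a in cDC1, -0.083 for Rab11a in GMP, -0.10 for Rab7 in MDP. They were also 0.032 for Rab37, 0.081 for Rab43 and -0.20 for Rab7 between MDP and GMP, -0.32 for Rab38 and -0.021 for Rab43 between d56kb and WT LMPP. With the percentage of tags in regions as a covariate the values were -0.025 for Rab5a and -0.12 for Rab7 in cDC1, -0.068 for Rab7 in GMP, 0.41 for Rab37 between MDP and GMP. They were also -0.27 for Rab37 between d56kb and WT LMPP. With LSK cells as the reference the values were 0.035 for Rab22a in cDC1. Leaving out 1 library the values were -0.11 to 0.13 for Rab5a and -0.17 to 0.30 for Rab7 in cDC1, -0.16 to 0.27 for Rab11a and -0.63 to 0.10 for Rab7b in GMP, -0.21 to 0.15 for Rab27a in MDP. They were also -0.031 to 0.38 for Rab11a, -0.024 to 0.22 for Rab22a, -0.12 to 0.070 for Rab37 and -0.092 to 0.18 for Rab7 between MDP and GMP, -0.57 to 0.025 for Rab22a and -0.011 to 0.12 for Rab38 between d56kb and WT LMPP, -0.95 to 0.036 for Rab32 and -1.15 to 0.10 for Rab38 between IRF8KO and WT LMPP.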
